A study of Arabidopsis thaliana with 2 samples.

Results

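The 10 Arabidopsis thaliana genes described here license and drive DNA replication. They are the 6 subunits of the MCM helicase (MCM2, AT1G44900; MCM3, AT5G46280; MCM4, AT2G16440; MCM5, AT2G07690; MCM6, AT5G44635; MCM7, AT4G02060), the loading factors CDC6 (AT2G29680) and CDT1A (AT2G31270), and the sliding clamp genes PCNA1 (AT1G07370) and PCNA2 (AT2G29570). They were chosen by locus, with earlier results of these data known. All 10 carried signal on both arrays, out of 25470 loci named on the array and 19660 with signal on both days. Each rests on 1 probe printed in 1 spot.

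The material was the suspension cell strain T87, grown in a modified LS medium at 22 °C under a cycle of light and dark, and harvested 1 day and 8 days after inoculation of fresh medium. No genetic change and no treatment other than the culture's age separates the days. Each day is represented by 1 array with 2 channels, which set the RNA of heavy gradient fractions with polysomes (fractions 1 to 3) against that of all fractions (1 to 8). There is 1 biological replicate per day, so every difference between days describes these 2 arrays, no test of it is possible and no p-value is given.

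The polysome ratio of a gene is given as a percent, the polysomal signal over that of total RNA. The labels do not fully settle this reading. They give total RNA for the Cy5 channel and fractions 1 to 3 for Cy3, yet describe the sample as polysomal, and one of their sentences calls the other pool nonpolysomal. The direction is likely, since the values are named polysome ratios, only 74 of 19660 genes (0.376%) lay above 100% on day 1, and small nucleolar RNAs, which are not translated, had a median of 3.62% on that day. If the denominator were nonpolysomal RNA, the percent values would have another meaning, while the ranks of genes on each day would not change. A ratio says how an mRNA was spread over the gradient and not how much of it there was. In bulk cells a lower loading in every cell and a loss of loading in a part of the cells cannot be told apart.

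Before S phase, the origin recognition complex, CDC6 and CDT1 place rings made of MCM2 to MCM7 on DNA, a step called licensing. The rings are later switched on as helicases by CDC45 and the GINS complex, and PCNA, a ring around DNA, then holds the polymerases and other fork proteins in place. In plants as in animals many of these genes are transcribed under E2F transcription factors, and they are known as genes of dividing cells. Cells of a batch culture generally divide after transfer to fresh medium and slow down as the medium is used up.

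On day 1 the 10 mRNAs were loaded alike. Their ratios ran from 32.9% for PCNA1 to 40.9% for MCM6, a range of 0.32 on the log2 scale, with a median of 37.8%. The median of all genes was 36.0% and their quartiles were 32.0% and 39.8%. No step between neighbours in the order of the 10 genes was larger than 0.11 on the log2 scale. The SD between different probes of a gene had a median of 0.14 on day 1 over 555 loci with several probes. That SD times the square root of 2, which is 0.20, is used here as a limit for steps between genes. The limit is about 1 SD of a difference between 2 genes. It is a low bar and no error bound, so genes with equal ratios can pass it. No neighbours in the day 1 order passed this limit, while the ends of the order, 0.32 apart, did.

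On day 8 the same 10 mRNAs lay far apart, from 8.97% for PCNA2 to 48.0% for MCM2, a range of 2.42 on the log2 scale. All genes spread out as well on this day. Their quartiles were 16.8% and 33.5%, which is 1.00 apart on the log2 scale, against 0.32 on day 1. A wider spread is therefore not particular to the 10 genes. MCM2, MCM3, MCM5 and MCM6 had ratios above those of day 1, MCM4 had a change of -0.01 on the log2 scale, MCM7 and CDT1A were lower, and PCNA1, PCNA2 and CDC6 were at least 2-fold lower. The order on day 8 was MCM2, MCM6, MCM3, MCM5, MCM4, CDT1A, MCM7, PCNA1, CDC6 and PCNA2. The SD between probes was larger on this day, with a median of 0.33, which sets the limit at 0.47. Only 2 steps exceeded it, the one from MCM7 to PCNA1 (0.81) and the one from PCNA1 to CDC6 (0.73). These steps divide the order into the 7 genes from MCM2 to MCM7, PCNA1 alone, and the pair of CDC6 and PCNA2. The division rests on a low bar, and the ends of its first part, MCM2 and MCM7, were themselves 0.83 apart.

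**Figure D1:**
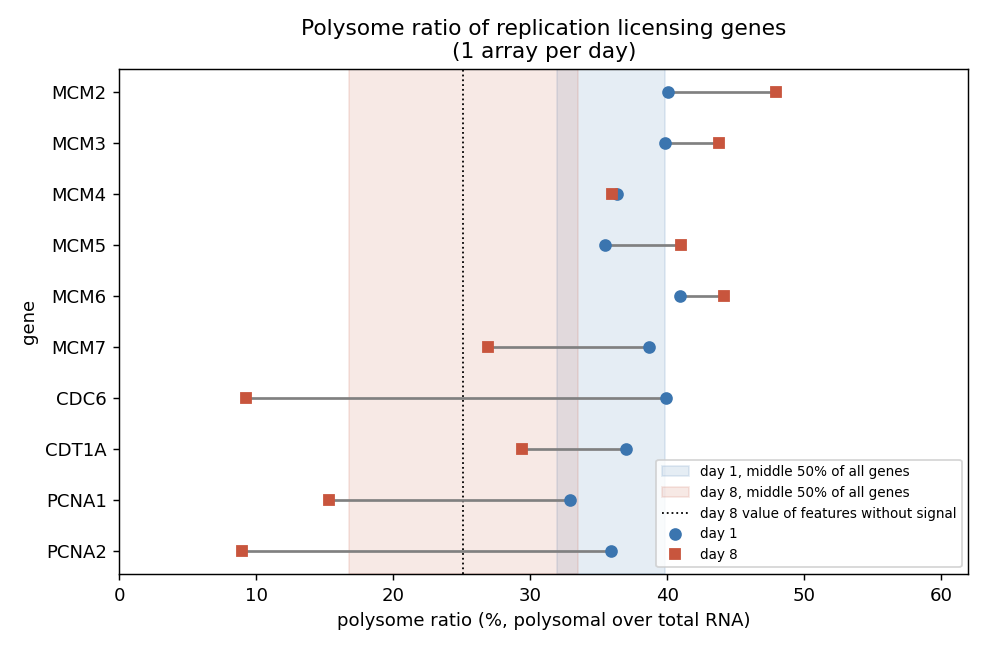
Polysome ratio in percent (x axis) of each of the 10 genes (y axis) on day 1 (circles) and day 8 (squares), with 1 array per day and so no error bars. Shaded bands run between the quartiles of all 19660 genes on each day, and the dotted line marks the day 8 value of features without signal (25.1%). The day 1 points lie between 32.9% and 40.9%, whereas the day 8 points run from 8.97% to 48.0%.

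The helicase subunits MCM2 to MCM6 had the 5 highest ratios of the 10 genes on day 8. MCM2, the subunit with a histone-binding tail in animals and yeast, had 40.1% on day 1 and 48.0% on day 8, which is a log2 change of 0.26. MCM5, which borders MCM2 at the gate of the ring, had 35.5% and 41.0% (0.21). Both were higher on day 8 on these arrays. MCM3 had 39.8% on day 1 and 43.8% on day 8 (0.14), and MCM6 had 40.9% and 44.2% (0.11). MCM4, a subunit of the helicase's ATPase core, had 36.3% and 36.0% (-0.01). These 5 changes are small beside the median SD of 0.31 between the changes of different probes of a gene, so a difference from day 1 is not established for any of them singly. A higher ratio on day 8 was found for 4 of the 6 helicase genes, and for 4 of the 10 genes in all, where 18.5% of all genes had one.

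MCM7 is named PROLIFERA in Arabidopsis and is like the others an ATPase of the ring. It had the lowest day 8 ratio of the helicase genes, with 38.6% on day 1 and 26.9% on day 8. Its change of -0.52 on the log2 scale equals that of the median gene (-0.52). It lay 0.78 below the change of MCM2 and 0.51 below that of MCM4. The limit for a difference between changes, made in the same way, is 0.43, so the gap to MCM4 was only slightly past a low bar. On day 8 alone, MCM7 was 0.83 below MCM2, past that day's limit of 0.47, and 0.42 below MCM4, within it. Its probe lay only 0.042 on the deposited log10 scale above the local day 8 value of features without signal, a value that a probe with little signal would approach. The signal of each channel was not analysed here, and the part of weak signal in the MCM7 value was not tested. The other 5 helicase probes lay 0.153 or more above it.

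Of the loading factors, CDC6 had the lowest change of all 10 genes. CDC6, an ATPase that joins the origin complex to recruit the helicase, had 39.9% on day 1 and 9.23% on day 8, which is a log2 change of -2.11 or a 4.33-fold lower ratio. CDT1A, which escorts the helicase to the origin and is known to be kept under tight control through the destruction of its protein, had 37.0% and 29.4%, a change of -0.33. The 2 loaders differed by 0.11 on day 1 and by 1.67 on day 8. The CDT1A probe lay 0.070 on the log10 scale above the local value of features without signal on day 8.

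The clamp genes both had lower ratios on day 8. PCNA1 had 32.9% on day 1 and 15.3% on day 8, which is a log2 change of -1.10 or a 2.15-fold lower ratio. PCNA2 had 35.9% and 8.97%, a change of -2.00 or 4.00-fold lower. The copies differed by 0.13 on day 1 and by 0.77 on day 8, above the limits of 0.20 and 0.47 on day 8 only. They encode closely related proteins, and how far each probe also binds the other mRNA was not tested. The change of PCNA1 equals that of features without signal (-1.10). Its probe lay at -0.207 from their local value on day 1 and at -0.206 on day 8 on the log10 scale. The part of weak signal in the PCNA1 values was not tested.

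The 3 genes at least 2-fold lower, CDC6, PCNA1 and PCNA2, make up 3 of 10, while the share past this fold among all genes was 25.6%. That share is near the background and is no result about the group as a whole. The other 7 were not past 1.5-fold either, a fold that 46.3% of all genes passed in this direction, and 6 of 10 were lower at all, where 81.3% of genes were. None of the 10 was at least 2-fold higher, against 1.21% of all genes. The median change of the 10 genes was -0.17, against -0.52 for all genes. For the 6 helicase genes the median was 0.12, with none at least 2-fold lower.

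**Figure D2:**
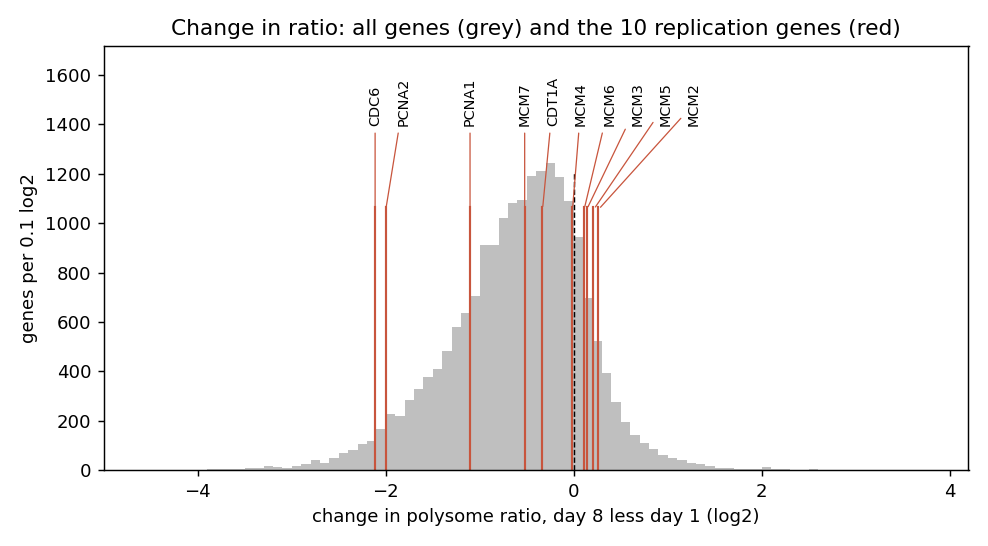
Number of genes per bin of 0.1 (y axis) against the log2 change in polysome ratio from day 1 to day 8 (x axis) for all 19660 genes in grey, with the 10 replication genes as red lines and 0 dashed. MCM2 to MCM6 lie between -0.01 and 0.26, on the right shoulder of the distribution, MCM7 lies at its median (-0.52), and CDC6 and PCNA2 lie in its left tail at -2.11 and -2.00.

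Set against all genes, the MCM2 to MCM6 mRNAs ranked higher on day 8 than on day 1, and the mRNAs of MCM7, CDC6 and both clamp genes ranked lower. On day 1 the quartiles of all genes were only 0.32 apart on the log2 scale, and the median SD between probes of a gene was 0.14. Ranks on that day therefore turn small differences in ratio into large ones. MCM5 went from percentile 45.8 of the ratios on day 1 to percentile 88.7 on day 8, and MCM4 went from 52.0 to 80.1. MCM2, MCM3 and MCM6 stood at 76.4, 74.9 and 80.3 on day 1, and at 94.7, 91.7 and 92.0 on day 8. CDC6 went the other way, from percentile 75.4 to 5.94, and PCNA2 went from 48.9 to 5.45. PCNA1 stood at percentile 29.1 on day 1 and at 20.6 on day 8. CDT1A (56.9 and 64.2) and MCM7 (68.4 and 56.1) lay above the median gene on both days. CDC6 and MCM2 had nearly the same ratio on day 1, 0.01 apart on the log2 scale, and were 2.38 apart on day 8.

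**Figure D3:**
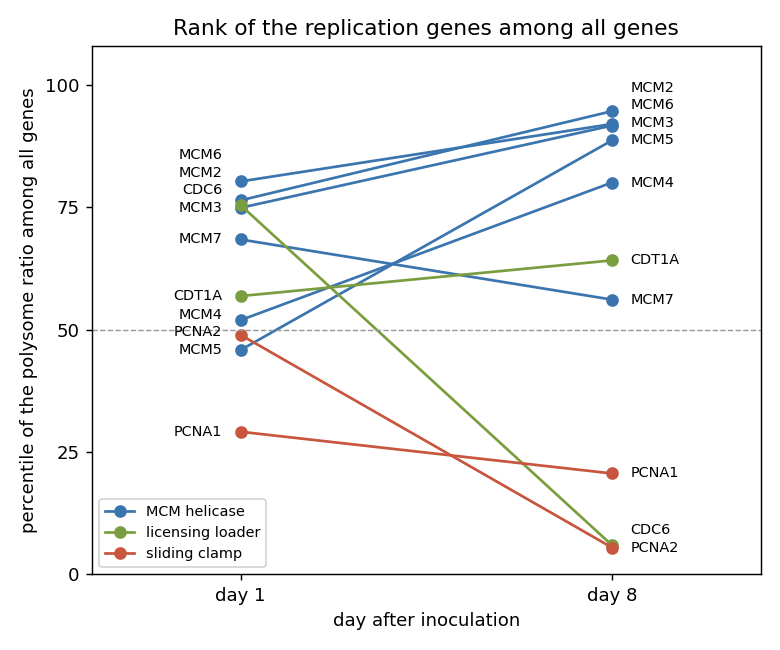
Percentile of each gene's polysome ratio among all 19660 genes (y axis) on day 1 and day 8 (x axis), coloured by role, with the median gene dashed. The lines of MCM2 to MCM6 end between percentiles 80.1 and 94.7, whereas those of CDC6 and PCNA2 end at 5.94 and 5.45.

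The position of 0 between the arrays is open. The 10 spike-in probes, RNAs added in known amounts, had a median change of -0.30, with a range from -0.59 to 0.73. Counted from that median, 5 of the 10 genes, MCM2 to MCM6, were higher on day 8, where 36.4% of all genes were, and PCNA1 at -0.80 was no longer past 2-fold, which left 2 of 10, against 16.0% of all genes. Counted from the median gene, MCM2 to MCM6 lay between 0.51 and 0.78 above it, CDT1A 0.19 above, PCNA1 at -0.58, PCNA2 at -1.48 and CDC6 at -1.59, so that 2 genes were past 2-fold on the lower side, against 10.8% of all genes, and none on the higher side, against 4.44%. The differences among the 10 genes do not depend on this choice.

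The relatives of these genes give the nearest comparison. CDC6B, a second gene for CDC6, had 36.2% on day 1 and 23.2% on day 8 on its probe with signal, which is a log2 change of -0.64, so CDC6 lay 1.47 below it. A further CDC6B probe gave 37.5% and 24.8%, but was taken as without signal on day 8. CDT1B had 44.3% and 27.4%, a change of -0.69, and CDT1A lay 0.36 above it, which is within the limit of 0.43. MCM8 and MCM9, paralogs that act in recombination rather than in the replicative ring, had 36.1% and 29.2% (-0.31) and 39.9% and 37.2% (-0.10). MCM10, which despite its name is no ring subunit but a factor that helps start the helicase, had 41.5% and 9.75% (-2.09), near the change of CDC6. ETG1, which binds the MCM complex and unloads it, had 37.6% and 30.4% (-0.31).

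Other genes of origin recognition and licensing had a median change of -0.37 and ran from -2.09 to 0.93. Of 12 measured, 2 were at least 2-fold lower and none at least 2-fold higher, against 25.6% and 1.21% of all genes. ORC3, an origin complex subunit, was highest with 35.0% on day 1 and 66.7% on day 8 (0.93), and ORC6, nearest the list's median, had 42.4% and 31.5% (-0.43). MCM10 was the lowest. The thirteenth, ORC1B, was without signal on day 8.

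The factors that switch the helicase on had lower ratios on day 8 in 5 of 5 genes measured, of 6 listed. Lower ratios were found for 81.3% of all genes, so that count is near the background. Of the 5 genes, 4 were at least 2-fold lower, against 25.6% of all genes, and the median change of the 5 was -1.56. PSF2, a GINS subunit, had 42.1% and 6.61% (-2.67), CDC45 had 38.0% and 12.9% (-1.56), and PSF1, also of GINS, had 31.3% and 16.4% (-0.93). The helicase genes themselves had a median change of 0.12. For SLD5, a GINS gene with 2 probes, the probes disagreed on day 1, with 36.6% and 161%. On the probe with the smaller change SLD5 was at -0.87, and the list's median was then -1.13 with 3 of 5 at least 2-fold lower.

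Polymerases, the clamp loader and other fork proteins spread widely around a median of -0.40. Of 24 measured, 4 were at least 2-fold lower and 6 higher to any extent, against 25.6% and 18.5% of all genes. POL2B, a catalytic subunit of DNA polymerase epsilon, was highest with 40.5% and 78.3% (0.95). RPA1A, a large subunit of the protein that coats single-stranded DNA and nearest the list's median, had 38.5% and 29.3% (-0.40), and RPA3A, a small subunit of that protein, was lowest with 37.6% and 9.29% (-2.02). RFC1, the large subunit of the complex that loads PCNA, had 43.0% and 43.9% (0.03), and its partners had changes of -1.29 (RFC2), -0.66 (RFC3), -0.80 (RFC4) and -0.79 (RFC5). The loader genes were chosen after their values were seen, because they act on PCNA.

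Among 8 genes of nucleotide supply and chromatin assembly the median change was -0.21 and 2 were at least 2-fold lower. FAS1, a subunit of the chromatin assembly factor that binds PCNA, was highest with 34.5% and 39.4% (0.19), RNR2A, a ribonucleotide reductase subunit, had 39.2% and 33.9% (-0.21), and ASF1B, a histone chaperone, was lowest with 30.2% and 4.47% (-2.76). Regulators of the step from G1 to S phase had a median of -0.49, with 3 of 10 at least 2-fold lower. RBR1, the retinoblastoma protein that holds E2F factors in check, was highest with 35.8% and 40.3% (0.17), DPA, a partner of E2F factors, had 34.9% and 21.5% (-0.70), and DEL3, an E2F-like repressor, was lowest with 32.4% and 7.11% (-2.19). Over all 59 measured genes of these 5 lists, 15 were at least 2-fold lower and none at least 2-fold higher, with a median change of -0.43. The corresponding shares of all genes were 25.6% and 1.21%, so the lists together lay near the background.

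**Figure D4:**
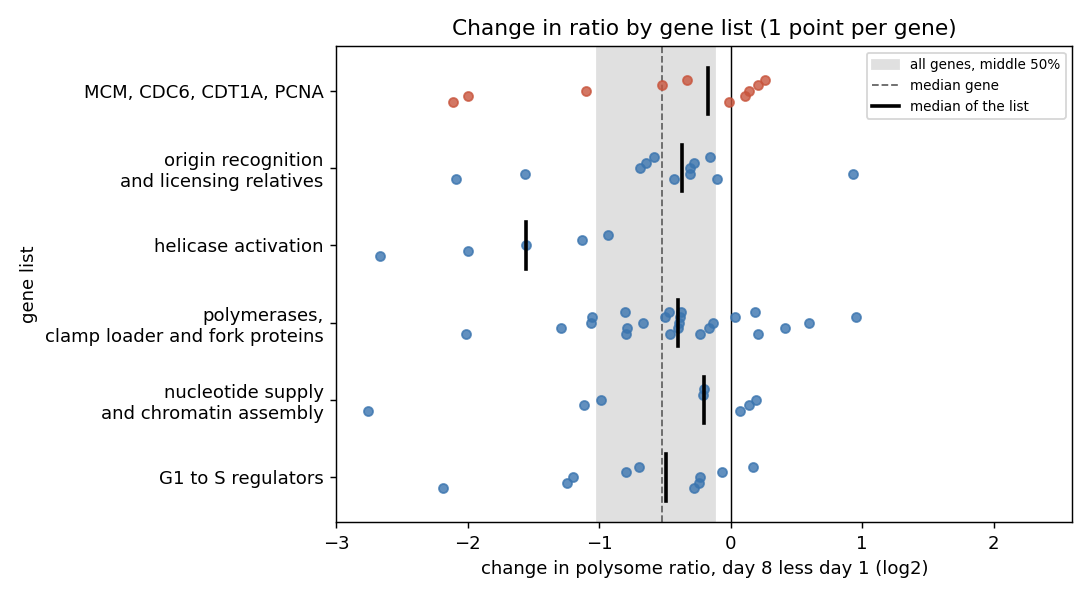
Log2 change in polysome ratio from day 1 to day 8 (x axis) of each measured gene (points) by list (y axis), with the list's median as a black bar and the range between the quartiles of all genes in grey around the median gene (dashed). The 10 replication genes in red span -2.11 to 0.26, and all 5 genes of helicase activation lie at -0.93 or lower. SLD5 is drawn as the mean of 2 probes, and its probe with the smaller change was at -0.87.

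T87 is known as a green culture, and markers of green cells (genes of Rubisco, the antenna and photosystem I) carried signal for 5 of 5 genes on both days. Seed storage genes, markers of cells that the culture should lack, had signal for 5 of 5 on day 1 and 2 of 5 on day 8. Signal here means only a ratio away from that of empty features. Only 25.5% of gene features on day 1 and 26.9% on day 8 were without signal, so signal alone says little about the cell type. The sources used here give no levels, so the cell type could not be checked.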

How the data were processed

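Per the file headers, the deposited values are polysome ratios of 39102 features a day, on a log10 scale; the base was read from the spike-in probes, which spanned -0.83 to 0.93 on day 1. The series matrix gave identical values (largest difference 0). How the ratios were made from scanner signals, and the array's genome build, are not given in the sources used here, and no coordinates or sequences are printed. Precision is limited by 1 array per day; repeated spots of 23 probes had a median SD of 0.03 (log2) on each day.

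Features without signal sat at a smooth value, with a median over 757 negative controls of -0.269 on day 1 and -0.601 on day 8 (log10). A feature within 0.006 of the median of the 30 nearest features that lay within 0.04 of this value was left out, which took 25.5% and 26.9% of gene features and 94.6% and 95.8% of negative controls. In simulated data the rule wrongly left out 0.558% of features with signal on day 1 and 4.98% on day 8. The simulated day 8 was made by shifting day 1 values and adding a small spread. It was thus unlike the real day 8, whose quartiles were 1.00 apart on the log2 scale against 0.32 on day 1. The loss on real day 8 features can therefore differ. The rule found 100% and 99.6% of the simulated features without signal. That was set in advance, since these were placed close to their local value, and it does not show how the rule fares on real features. Probes were assigned to 1 locus by locus name (25920), RefSeq accession (253), symbol (31) or the main gene of an upstream reading frame (55), with the RefSeq table of TAIR10.1, and 201 probes naming several loci and 11018 others were not used. Log values were averaged over spots, then over probes of a locus, with Python 3.11.15, numpy 2.4.6 and pandas 2.3.3. Named were all 10 genes and, in each further list, the genes with the highest, lowest and most central change, besides CDC6B, CDT1B, MCM8, MCM9 and ETG1 as relatives, the loader subunits RFC1 to RFC5, and SLD5 and ORC1B, which were added after their values were seen. The genes, lists and the signal rule were chosen with earlier results of these data known. Alternatives covered the signal rule, the position of 0, the fold, the choice of probe and the source table. A planned description of protein and promoter sequences was not run.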

Additional observations from a re-analysis of the deposited data

How the results depend on the processing

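All 10 genes kept their values when features without signal were kept and when the tolerance was widened to 0.012. They also did when probes naming several loci were added or single probes were picked in place of means. Their ratios were the same in the series' value table. Each gene rests on 1 probe outside both tolerances, and the 2 sources hold identical values. Most of these settings therefore could not change the 10 genes, and the outcome is no evidence that their values are robust. The position of 0 and the fold moved the medians and counts. Among the further lists, the median of origin recognition and licensing went from -0.37 to -0.43 with all features kept, and that of helicase activation from -1.56 to -1.13 with the probe of the highest change. With 0 at the median spike-in probe the median change of the 10 genes was 0.13, and that of the 59 further genes was -0.13, with 8 of these at least 2-fold lower, 2 at least 2-fold higher and 23 higher to any extent, where 16.0% of all genes were at least 2-fold lower and 36.4% higher. With 0 at the median gene the medians were 0.35 and 0.093. Of the further genes, 8 were at least 2-fold lower and 3 at least 2-fold higher, against 10.8% and 4.44% of all genes. To any extent, 33 further genes were higher, where 9811 of 19660 genes were by the choice of 0. At 1.5-fold, 25 of the 59 further genes were lower, where 46.3% of all genes were, and 3 were higher. The share of all genes at least 1.5-fold higher was not counted, so those 3 cannot be set against a background. The count among the 10 genes stayed at 3 lower. These shifts follow from the construction of the alternatives. No paired analysis was possible because each day has 1 array. Signal over background was not analysed. Among the 10 genes, the day 8 ratios of MCM7 and CDT1A lay nearest the local value without signal. Several further genes, FEN1 (0.007 from that value, log10) among them, lay closer. On day 8 the value without signal (25.1%) was also near the ratio of the median gene (24.2%), so nearness to it alone does not show a weak signal. On day 1 the value without signal was 53.8%. Among the 10 genes, MCM2 and CDC6 lay nearest the local value on that day, each at -0.109 from it (log10).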

Other observations

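Besides the 6 helicase genes and MCM8, MCM9 and MCM10, 2 loci carried the words minichromosome maintenance in their description in the deposited table. AT1G67440 had a ratio of 42.3% on day 1 and 34.6% on day 8, and AT1G67460 had 31.8% and 12.6%, with changes of -0.29 and -1.34 on the log2 scale. What these loci encode was not examined.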
